A study of Homo sapiens with 12 samples.

Results

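The genes described here encode the core proteins of the spliceosome, the machine that removes introns from pre-mRNA, and the RNA helicases that drive its rearrangements. They were taken from the count table of an RNA sequencing study by symbol: protein-coding rows for the SNRP and SNRNP genes, SF3A and SF3B, PRPF, LSM2 to LSM8, U2AF, U2SURP, and the helicases DHX8, DHX15, DHX16, DHX38, DDX23 and DDX46. The rule found 58 genes among 58735 rows of the table. No measured value was used in it, but the set was chosen with earlier results of these data known. The study used TIGK cells, human gingival keratinocytes immortalized with hTERT, as a model of the oral epithelium. All cells were held in medium with 48 mM glucose, whose base medium contained no Arg (L-arginine). The untreated controls therefore received no added Arg, and the treated cells received 500 uM Arg. The supplements listed for the medium include pituitary extract, whose Arg content is not given. The groups were control at 24 h (Con24h), Arg at 24 h (Arg24h), control at 48 h (Con48h) and Arg at 48 h (Arg48h), each with 3 libraries, A, B and C, of poly(A) RNA. TIGK is 1 immortalized line, and the study's methods describe cells from a flask seeded into wells, with 3 replicates per condition. Separate passages or days are not described, so p-values measure the spread between these libraries, which may be technical.

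Splicing starts when the U1 snRNP binds the donor site of an intron and the U2 snRNP, guided by the U2AF heterodimer, binds the branch site near the acceptor site. The preassembled tri-snRNP of U4, U6 and U5 then joins, helicases unwind U4 from U6 and release U1, and the catalytic centre forms under the protein PRPF8. The U1, U2, U4 and U5 snRNAs each carry a ring of 7 Sm proteins, whereas U6 carries a ring of the 7 proteins LSM2 to LSM8. U11 and U12 particles serve the same purpose on the rare minor introns. Nearly every human pre-mRNA needs these proteins, so they are expressed in all nucleated cells, keratinocytes included.

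The 12 libraries held 16542243 to 19040964 counts. The 58 genes together took 0.894 to 0.979% of the counts of a library. Keratinocyte markers (KRT5, KRT14 and 6 others) summed to 42895.6 to 55266.8 CPM (counts scaled to the library size by TMM over the 12 libraries), so the markers of the labelled cell type were present in all of them. COL1A2, COL3A1, TYR, CDH5 and CD3E were at or near 0, with at most 5 counts in any library. The other melanocyte, endothelial and leukocyte markers were low, with PMEL at up to 53 counts, VWF at up to 32 and CD14 at up to 60, and each of these lists summed to at most 3.56 CPM. Of the fibroblast list, DCN reached 15.2 to 76.1 CPM and COL1A1 10.8 to 27.0 CPM. Mitochondrially encoded genes took 1.20 to 1.30% of counts in Con24h and 0.624 to 0.802% in Arg24h, a gap that runs with the treatment at 24 h. In Con48h, library B stood apart with 1.55% against 0.707 and 0.906%. In this kind of bulk sample, fewer cells of a type and less RNA per cell cannot be told apart.

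Levels between genes were compared as FPKM, here CPM per kilobase of the exonic length given in the table. The most abundant transcript was SNRPB, whose product SmB/B′ is a subunit of the Sm ring, at a mean of 218 FPKM over the 12 libraries. SNRPD2, also of the Sm ring, followed at 141 FPKM, and SNRPC, the U1-specific protein U1-C, at 139 FPKM. The means of SNRPD2 and SNRPC lay closer together than the spread between libraries of either gene, so their order is not settled. It also rests on the length used: per base of the GENCODE canonical transcript, an alternative added after the data were seen, SNRPD2 came first (440 FPKM), followed by SNRPF (302 FPKM) and SNRPB (257 FPKM). By exonic length, the leading genes of the other classes were SF3B5 in the U2 class (138 FPKM, but behind U2AF2 and SF3B6 by canonical length), LSM4 in the LSm ring (109 FPKM), PRPF19 in the tri-snRNP class (86.1 FPKM), DHX15 among the helicases (59.3 FPKM) and SNRNP25 of the U11/U12 particle (22.6 FPKM). PRPF19 is counted here with the tri-snRNP genes, although its product is the ubiquitin ligase of the Prp19 complex. Medians per class were highest in the Sm ring (67.6 FPKM) and lowest in the U11/U12 class (7.63 FPKM). Within the Sm ring, whose subunits sit in the particle in equal numbers, transcript levels ran from 29.1 FPKM for SNRPD1 to 218 FPKM for SNRPB. Within the LSm ring they ran from 3.06 FPKM for LSM8 to 109 FPKM for LSM4.

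**Figure D1:**
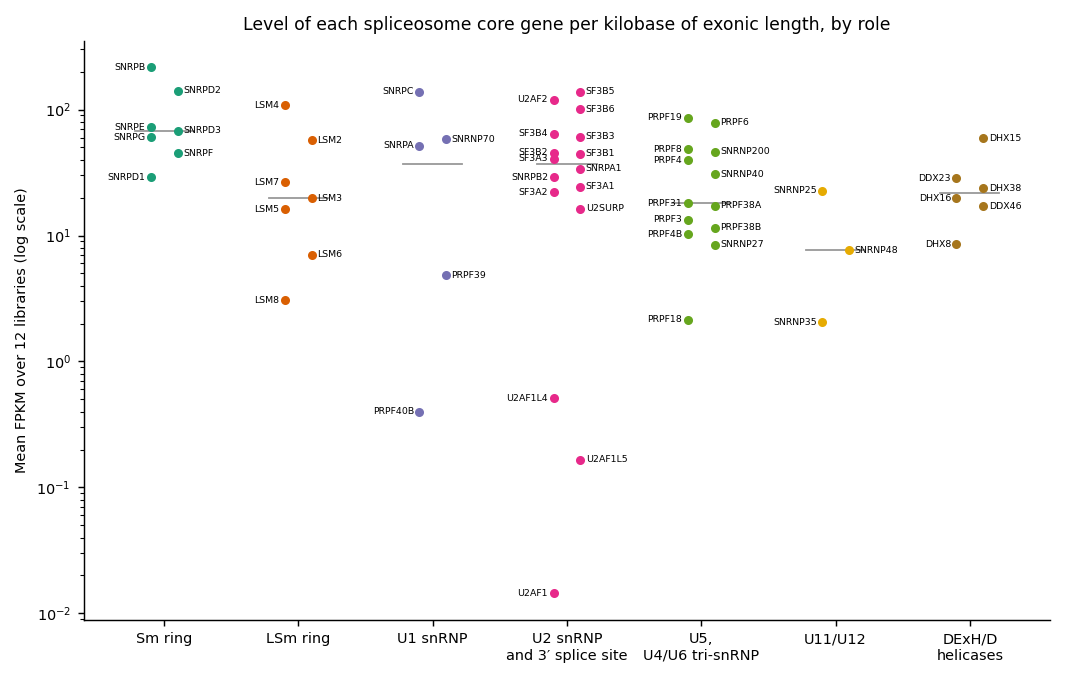
Mean FPKM of 57 of the 58 genes over the 12 libraries (vertical log axis), in columns by role, with grey lines at the class medians. SNRPB leads at 218 FPKM, and most genes lie between 1 and 218 FPKM, while U2AF1, U2AF1L5, PRPF40B and U2AF1L4 fall below 1 FPKM.

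The lowest value of all belonged to U2AF1, the small subunit of U2AF that reads the AG at the acceptor site. Its row held 0 to 6 counts per library, 35 in all (0.0144 FPKM), and it was the only member to fail the filter on low counts in every comparison. A second row, U2AF1L5, held 398 counts (0.165 FPKM). Both lie on chromosome 21, on the minus strand, U2AF1 at chr21:43092956-43107587 and U2AF1L5 at chr21:6484623-6499261 (GRCh38). GENCODE v44 marks U2AF1L5 as an artifactual duplication of U2AF1 in the assembly. Of the 14490 windows of 150 bases in the U2AF1L5 locus, 11976 (82.65%) had an exact copy in the U2AF1 locus. The canonical transcripts, 945 bases each, differed at 1 base. The first 30 bases of the coding sequence, in exon 1 of each, are shown because the 2 copies cannot be told apart by them. Capitals mark the start codon, and the coordinates are chr21:43107465-43107494 and chr21:6499143-6499172.
U2AF1: ATGgcggagtatctggcctccatcttcggc
U2AF1L5: ATGgcggagtatctggcctccatcttcggc
Whether reads shared by both copies were discarded in the counting was not tested, and no change is given for U2AF1. The large subunit, U2AF2, stood at 120 FPKM, the fifth highest of the set.

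Other rows also carry doubt. The strand setting of the counting was not given in the sources used here, and genes that overlap a neighbour may hold or lose its reads. The overlap was with a more strongly counted gene for U2AF1L4 (PSENEN), PRPF39 (FKBP3) and PRPF40B (FMNL3). SNRNP35, SNRNP27, SNRPD3, PRPF38A, DHX8, SNRNP25, DDX46 and DHX38 overlap a gene with 24.1 to 81.7% as many counts. Rows of pseudogenes held counts equal to 8.45% of those of SNRPG and 0.731% of those of SNRPE, so the values of these genes could be split. PRPF18, PRPF40B, U2AF1L4 and U2AF1L5 had 318 to 873 counts over all libraries, and their log2 fold changes had the widest errors of the 57 genes tested.

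The results below turn on PRPF6 and SNRNP200, which were higher with Arg, and on SNRPB and SNRPD2, which had negative log2 fold changes. Their promoters are shown because the same short motif stands in all 4. Each line gives the 250 bases before the RefSeq start (GRCh38.p14), on the strand of the gene. The SNRPD2 window lies wholly inside the gene as counted, and the SNRPB window partly so, since both counted genes begin further upstream. Capitals mark the ETS core, CCGGAAG or its reverse complement, the site of ETS family factors. The windows are chr20:63980882-63981131 on the plus strand for PRPF6, and, on the minus strand, chr2:96305547-96305796 for SNRNP200, chr20:2470790-2471039 for SNRPB and chr19:45692317-45692566 for SNRPD2.
PRPF6: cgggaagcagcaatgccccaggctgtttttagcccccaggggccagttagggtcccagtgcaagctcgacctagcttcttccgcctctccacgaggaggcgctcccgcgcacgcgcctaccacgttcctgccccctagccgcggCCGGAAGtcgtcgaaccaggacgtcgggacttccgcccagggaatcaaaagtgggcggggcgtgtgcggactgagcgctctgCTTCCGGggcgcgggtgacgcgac
SNRNP200: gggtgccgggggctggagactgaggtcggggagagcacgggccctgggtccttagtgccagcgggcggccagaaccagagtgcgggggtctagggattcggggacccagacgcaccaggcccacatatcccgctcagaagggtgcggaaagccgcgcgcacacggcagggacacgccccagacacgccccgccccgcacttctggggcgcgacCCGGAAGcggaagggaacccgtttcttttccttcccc
SNRPB: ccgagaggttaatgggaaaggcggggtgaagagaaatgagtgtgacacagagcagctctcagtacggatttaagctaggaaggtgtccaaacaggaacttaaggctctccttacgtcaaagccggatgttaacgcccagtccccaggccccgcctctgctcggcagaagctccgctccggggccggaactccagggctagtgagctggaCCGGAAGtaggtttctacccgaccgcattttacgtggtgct
SNRPD2: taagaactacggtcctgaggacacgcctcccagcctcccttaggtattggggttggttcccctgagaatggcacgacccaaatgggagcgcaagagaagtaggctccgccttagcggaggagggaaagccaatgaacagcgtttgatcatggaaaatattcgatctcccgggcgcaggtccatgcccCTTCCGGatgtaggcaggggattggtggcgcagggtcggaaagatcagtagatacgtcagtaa
The ETS core began 106 and 24 bases before the start in PRPF6, 37 in SNRNP200, 41 in SNRPB and 63 in SNRPD2. Over the full RefSeq windows of 300 bases, which add 50 bases after the start, 25 of the 49 members with an entry (51.02%) held the ETS core on either strand. It stood in 10.67% of 27305 promoters and in 19.5% of 10008 promoters of protein-coding genes with a mean of at least 10 counts per library. It was found in 10 of 14 promoters of the U2 class, 4 of 6 each of the Sm ring and the helicases, 4 of 11 of the tri-snRNP class, 2 of 6 of the LSm ring, 1 of 4 of the U1 class and 0 of 2 of the U11/U12 class. Other motifs were searched on both strands of the same windows. The NRF1 site was in 18.37% of the member promoters, against 6.285% of all and 11.74% of those 10008. CCAAT was in 44.9%, against 35.7 and 36.57%, and the E-box CACGTG in 6.122%, against 7.435 and 10.18%. TATAAA was in 2.041%, against 11.95 and 5.516%. No entry was found for 9 members, among them LSM6, PRPF3, PRPF39, PRPF4B, SF3B3, SNRNP35, SNRPD1 and U2AF1L5. A match is a string of letters and not a shown binding site. The median log2 fold change with Arg at 24 h was 0.08 in the 25 genes with the ETS core and 0.03 in the 23 tested genes without it, of which 17 and 16 were positive.

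The first comparison asked how Arg for 24 h changed the levels of these transcripts under high glucose. PRPF6, SNRNP200, DHX38 and U2SURP were upregulated, each by 1.22- to 1.28-fold, and no member was downregulated at an adjusted p under 0.05 (edgeR's quasi-likelihood test, adjusted by Benjamini-Hochberg over the 14279 genes tested). Of all genes tested, 2.79% were upregulated and 3.84% downregulated by this rule, against 4 of 57 members (7.02%) and 0 of 57. By an unadjusted p under 0.05, 15 members were higher (26.3%, against 10.8% of all genes) and 6 lower (10.5%, against 11.9%), and DESeq2 called 5 higher (3.46% of all genes) and 0 lower (4.52% of all genes). The 3 Arg libraries all lay above the 3 controls for 18 members (31.6%, against 12.9% of all genes) and below them for 6 (10.5%, against 13.4%). In all, 40 of the 57 members had a positive log2 fold change (70.2%, against 50.5% of all genes), with a median of 0.08 (0.00 over all genes). Since the set was chosen with earlier results of these data known, these shares are a description and not an independent test. The share of mitochondrially encoded counts fell with Arg, as given above. Without those genes in the table, edgeR called the same 4 members. The fibroblast list summed to 34.2 to 54.3 CPM in Con24h and 30.2 to 41.1 CPM in Arg24h, and its member DCN was lower with Arg (log2 fold change -0.70, adjusted p = 0.0294). CD14, at a mean of 2.81 CPM in the controls and 1.52 CPM with Arg, did not overlap between the groups (log2 fold change -0.89, adjusted p = 0.120). Their part in the result was not tested.

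PRPF6, at chr20:63981135-64033100, encodes the U5 protein that bridges the U5 and U4/U6 particles. It stood at 206.2, 210.6 and 206.8 CPM in the controls and at 260.6, 277.6 and 261.4 CPM with Arg for 24 h. The lowest treated library was above the highest control by more than the spread within either group. Its log2 fold change was 0.36 (SE 0.07, adjusted p = 0.00676), and it was the only one of the 4 that kept an adjusted p under 0.05 without each of the 6 libraries in turn.

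SNRNP200, at chr2:96274336-96305515, encodes Brr2, the U5 helicase that unwinds U4 from U6. It stood at 411.5, 470.4 and 418.7 CPM in the controls and at 522.5, 546.0 and 518.6 CPM with Arg. Control B was nearer to the treated libraries than controls A and C were, but the groups did not overlap. The log2 fold change was 0.29 (SE 0.08, adjusted p = 0.0311).

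DHX38, at chr16:72093562-72112912, encodes the human Prp16, the helicase that remodels the spliceosome between its first and second catalytic steps. It stood at 133.0, 128.6 and 122.9 CPM in the controls and at 145.3, 178.2 and 156.0 CPM with Arg. The treated libraries were all above the controls but spread more widely than they did. The log2 fold change was 0.32 (SE 0.09, adjusted p = 0.0359).

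U2SURP, at chr3:142964497-143060546, encodes the SR140 protein associated with the U2 snRNP. It stood at 159.0, 147.0 and 157.7 CPM in the controls and at 195.8, 195.6 and 174.0 CPM with Arg. Again the groups did not overlap, and Arg24h C was the lowest of the treated libraries. The log2 fold change was 0.28 (SE 0.08, adjusted p = 0.0419). With a correction for gene length U2SURP no longer passed (0.25, adjusted p = 0.0717). Without Con24h A, Con24h C, Arg24h B or Arg24h C, PRPF6 was the only member called. Of all genes, 0.859 to 1.03% were higher and 1.59 to 1.95% lower in these fits. Without Con24h B, PRPF6, PRPF8, SNRNP200 and DHX38 were called higher, and LSM2, SNRPA1, SNRPB and SNRPG lower (4.42 and 6.02% of all genes). Without Arg24h A, 7 were called higher and 1 (LSM3) lower (3.29 and 4.36% of all genes).

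**Figure D2:**
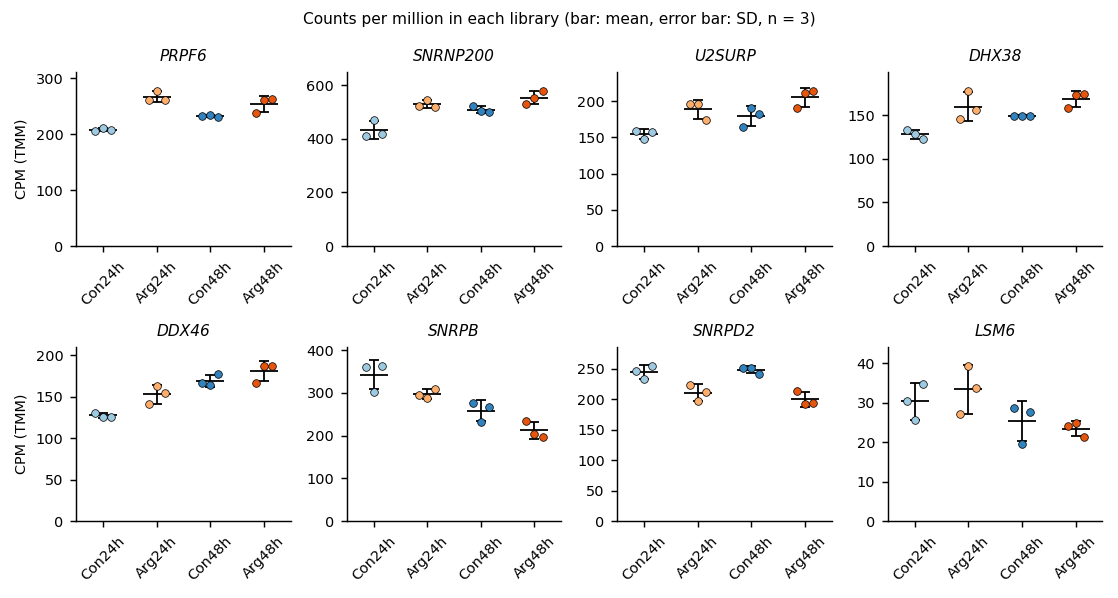
CPM of 8 members in each of the 12 libraries (points), with the mean and SD of the 3 libraries of a group. PRPF6 stood at 206.2 to 210.6 in Con24h and 260.6 to 277.6 in Arg24h, whereas SNRPB ran from 364.2 in Con24h down to 197.9 in Arg48h.

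The classes are described in turn, since differences between them were not tested. Of the 6 helicases, 5 were positive (median 0.22), and in all 5 the Arg libraries lay above the controls. Besides DHX38, these were DDX46 (human Prp5, which acts at the branch site; log2 fold change 0.26, adjusted p = 0.0612), DDX23 (human Prp28, which releases U1; 0.23, adjusted p = 0.101), DHX8 (human Prp22, which releases the spliced mRNA; 0.20, adjusted p = 0.198) and DHX16 (human Prp2; 0.11, adjusted p = 0.453). DHX15, human Prp43, which takes the spent complex apart, was at -0.10 (adjusted p = 0.422). In each of the 16 alternatives tried, 5 of the 6 were positive.

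In the U5 and U4/U6 tri-snRNP class, 11 of 13 genes were positive (median 0.10). PRPF8, the scaffold of the catalytic centre, stood at 474.2, 532.2 and 471.2 CPM in the controls and at 576.4, 561.7 and 556.6 CPM with Arg. Its groups did not overlap (log2 fold change 0.20, SE 0.07), but the adjusted p was 0.125. PRPF3 (0.26) and PRPF31 (0.21), proteins of the U4/U6 particle, and PRPF19 (0.17) passed the unadjusted test only. In the U2 class, 12 of 15 genes were positive (median 0.08). After U2SURP, the smallest p-values there belonged to the SF3A and SF3B proteins that hold U2 at the branch site. These were SF3A2 (0.31, adjusted p = 0.0700), SF3A1 (0.21) and SF3B2 (0.21), all of which passed the unadjusted test only. SF3B1, the subunit that clamps the branch helix, differed by 0.03 (SE 0.07).

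Among the 14 ring proteins the direction was mixed or negative. In the Sm ring 3 of 7 were positive (median -0.01), and in the LSm ring 3 of 7 (median -0.03). SNRPD2, at chr19:45687454-45692569, stood at 247.3, 233.1 and 255.6 CPM in the controls and at 224.2, 197.0 and 212.5 CPM with Arg, with no overlap (log2 fold change -0.22, SE 0.08, adjusted p = 0.108). SNRPB, at chr20:2461634-2470853, stood at 361.9, 303.0 and 364.2 CPM in the controls and at 296.4, 287.4 and 310.1 CPM with Arg. Control B overlapped the treated group, and the log2 fold change was -0.20 (SE 0.08, adjusted p = 0.151). SNRPG (-0.26) and LSM2 (-0.26) had adjusted p-values of 0.171 and 0.126. Outside the rings, the unadjusted test placed 2 members lower: PRPF39 of the U1 class (-0.36, adjusted p = 0.0711) and SNRNP48 of the U11/U12 particle (-0.23, adjusted p = 0.143). The sign of a ring's median turned with the processing: with the length correction the LSm median was 0.02 in place of -0.03, and without Con24h A the Sm median was 0.03 in place of -0.01.

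**Figure D3:**
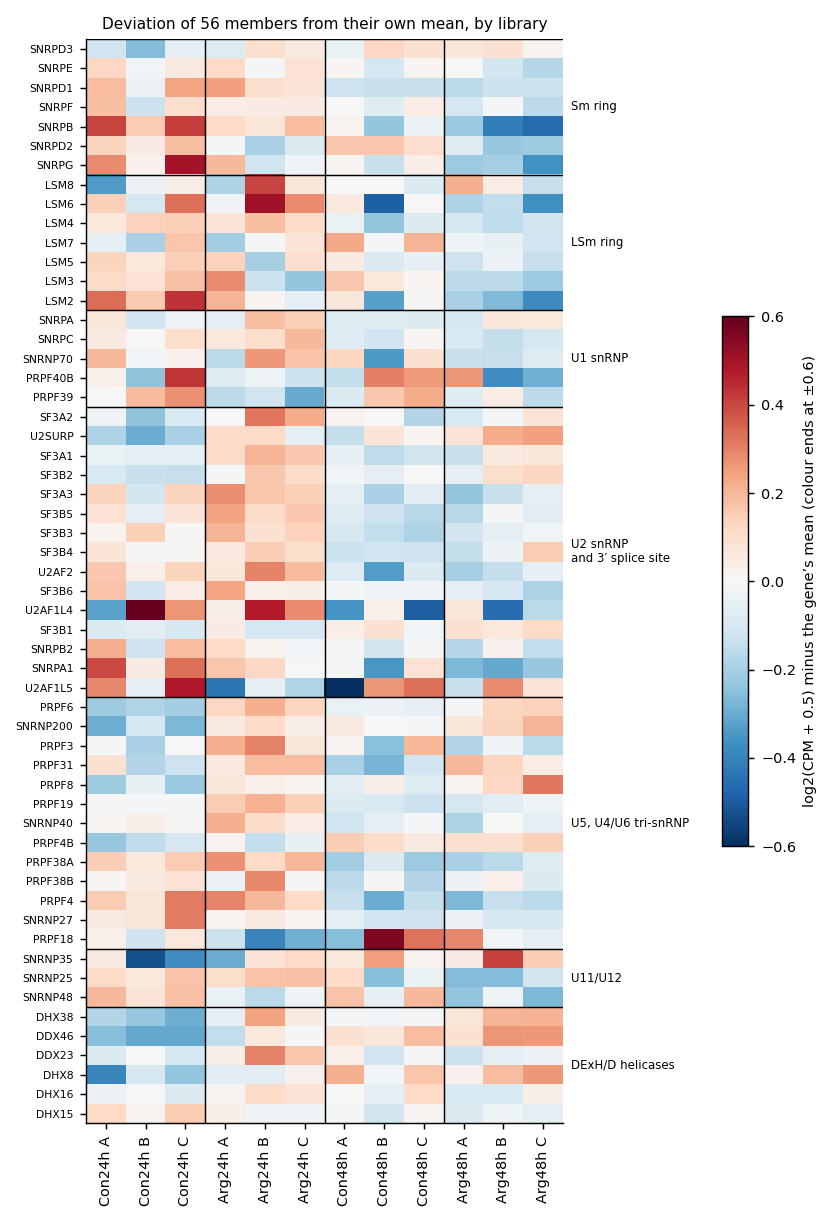
Colour shows log2(CPM + 0.5) of 56 members minus the mean of the same gene, for the 12 libraries in columns by group and the genes in rows by role. PRPF6 and SNRNP200 are blue in all Con24h columns and red in all Arg24h columns (for PRPF6, 206.2 to 210.6 against 260.6 to 277.6 CPM), while SNRPB fades from red in Con24h to blue in Arg48h.

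The same comparison was made after 48 h. No member was called in either direction, and over all 14562 genes tested 0% were upregulated and 0.117% downregulated (edgeR). By an unadjusted p under 0.05, 4 members were higher (7.02%, against 5.94% of all genes) and 6 lower (10.5%, against 7.49%). DESeq2 called 0 members higher (0.275% of all genes) and 1, SNRPD2, lower (0.989% of all genes). The groups did not overlap for 4 higher members (7.02%, against 8.56%) and 5 lower members (8.77%, against 8.51%). These shares were near those of all genes. The median log2 fold change of the members was 0.00, with 27 of 57 positive (47.4%, against 50.3% of all genes).

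By role, the U2 class (11 of 15 positive, median 0.05) and the tri-snRNP class (9 of 13, 0.02) stood above the rings. In the Sm ring 0 of 7 genes were positive (median -0.08), and in the LSm ring 1 of 7 (median -0.11). With the correction for gene length 2 of 7 were positive in each ring (medians -0.05 and -0.09). SNRPD2 had the smallest p of all members at 48 h. It stood at 251.8, 252.1 and 241.6 CPM in the controls and at 214.4, 192.3 and 194.3 CPM with Arg, with no overlap (log2 fold change -0.31, SE 0.07, adjusted p = 0.131 in edgeR and 0.00637 in DESeq2). SNRPB stood at 277.5, 232.2 and 266.5 CPM in the controls and at 233.7, 204.9 and 197.9 CPM with Arg. Control B lay just below the highest treated library (log2 fold change -0.29, SE 0.08, adjusted p = 0.198). LSM3 (-0.26, adjusted p = 0.176), SNRPG (-0.24, 0.219), SNRNP48 (-0.29, 0.235) and LSM7 (-0.21, 0.325) were the other 4 lower by the unadjusted test.

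PRPF31, which holds the U4/U6 particle to U5, had the smallest p among the higher members at 48 h. It stood at 41.7, 39.4 and 44.1 CPM in the controls and at 54.8, 52.3 and 49.3 CPM with Arg, with no overlap (log2 fold change 0.32, SE 0.08, adjusted p = 0.163). U2SURP (0.19, adjusted p = 0.287), PRPF8 (0.19, 0.309) and DHX38 (0.17, 0.268) followed. DHX38 was tightly grouped in the controls, at 149.4, 149.0 and 149.6 CPM, below 158.2, 173.7 and 174.1 CPM with Arg.

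One library decided the counts at 48 h. Without Con48h B, the control with the mitochondrial share of 1.55%, 3 members were upregulated (PRPF31, PRPF8 and U2SURP) and 11 downregulated (LSM2, LSM3, LSM7, PRPF3, SNRNP25, SNRNP48, SNRNP70, SNRPA1, SNRPB, SNRPD2 and SNRPG). Of the 14854 genes then tested, 1152 (7.76%) were called higher and 1213 (8.17%) lower. In that fit SNRPB stood at -0.36 (adjusted p = 0.000562) and SNRPD2 at -0.30 (adjusted p = 0.00138). The part of the mitochondrial share in this was not tested.

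**Figure D4:**
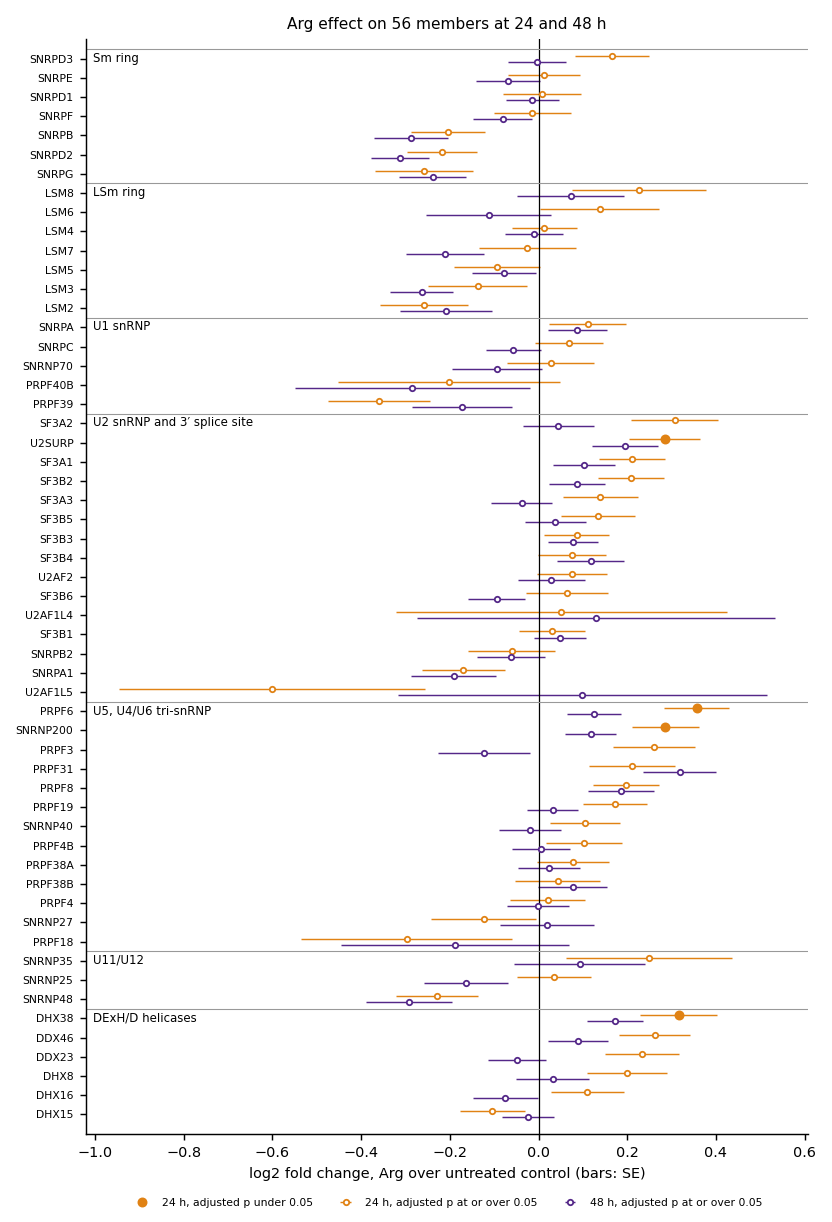
Log2 fold change of Arg over untreated control (horizontal axis, bars are SE) for 56 members by role, at 24 h (orange) and 48 h (violet), with filled points for an adjusted p under 0.05. The 4 filled points, PRPF6 (0.36), DHX38 (0.32), SNRNP200 (0.29) and U2SURP (0.28), are all at 24 h, and at 48 h every Sm ring gene lies at or left of 0.

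The comparisons at 24 and 48 h share no library. Of the 57 members, 25 were positive at both times, 15 negative at both and 17 of opposite sign (Pearson r of the log2 fold changes 0.63 over the 57 genes, a description only, since genes of the same libraries are not independent). For PRPF6, SNRNP200 and DHX38 the lowest Arg library exceeded the highest control at both times, and for SNRPD2 the highest Arg library stayed under the lowest control. These are 5.26 and 1.75% of the members, against 2.35 and 2.79% of the 13996 genes tested at both times. The unadjusted test placed DHX38, U2SURP, PRPF8 and PRPF31 higher at both times, and SNRPD2, SNRNP48, SNRPB and SNRPG lower at both (7.02% of the members each way, against 2.24 and 3.92% of all genes). PRPF6 was 1.28-fold higher at 24 h and 1.09-fold higher at 48 h, when its CPM was 232.6, 233.6 and 230.7 in the controls and 237.8, 261.1 and 262.8 with Arg.

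The change of the Arg effect between the times was tested as an interaction over all 12 libraries. No member passed in edgeR or in DESeq2 (of 15148 genes, edgeR called 0.0132% with a positive and 0% with a negative difference, and DESeq2 0.066 and 0.0858%). By an unadjusted p under 0.05, 3 members had a smaller effect at 48 h (5.26%, against 3.8% of all genes) and 0 a larger one (against 3.06%): PRPF3 (difference in log2 fold change -0.38, 95% interval -0.67 to -0.10), DDX23 (-0.28, -0.49 to -0.07) and PRPF6 (-0.23, -0.41 to -0.05). Their adjusted p-values were 0.609, 0.609 and 0.638. The difference was positive in 13 of 57 members (22.8%, against 48.9% of all genes), and its median was -0.09 (-0.01 over all genes). So the upregulation at 24 h and the absence of calls at 48 h are not shown to differ for any member.

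Time in culture was the next question, first without Arg. From 24 to 48 h in the controls, 6 of 57 members rose (10.5%, against 9.9% of all genes) and 7 fell (12.3%, against 10%). Those that rose included the helicases DDX46 (log2 fold change 0.41, adjusted p = 0.00397), DHX8 (0.37, 0.0217) and DHX38 (0.22, 0.0450), together with SNRNP200 (0.24, 0.0402) and the kinase PRPF4B of the tri-snRNP class (0.27, 0.0311). Those that fell were SNRPB (-0.40, 0.0116), SNRPD1 (-0.26, 0.0450), LSM2 (-0.39, 0.0314), LSM4 (-0.23, 0.0483), the U4/U6 protein PRPF4 (-0.37, 0.0117), PRPF38A (-0.29, 0.0225) and U2AF2 (-0.27, 0.0387). The groups did not overlap for 11 higher members (19.3%, against 19.2%) and 16 lower members (28.1%, against 19.7%), and 22 were positive (38.6%, against 51.5%). Scaled by library size only, 9 rose and 2 fell, while the median of all genes went from 0.01 to 0.07, and 12.8% of them rose and 6.98% fell. DDX46 stood at 130.6, 126.0 and 126.0 CPM at 24 h and at 166.6, 163.8 and 177.4 CPM at 48 h, and had the smallest p of the 57 genes. The helicases were positive in 5 of 6 (median 0.14), whereas the Sm ring was positive in 2 of 7 (-0.08), the LSm ring in 2 of 7 (-0.14) and the U2 class in 4 of 15 (-0.15). DDX46 was the only member called without Con24h A or without Con24h C. Of all genes, 2.85% rose and 2.74% fell without Con24h A, and 3.34 and 3.36% without Con24h C. Without Con48h A the calls were 1 higher and 3 lower (6.17 and 6.22% of all genes). They were 1 and 4 without Con48h C (7.78 and 7.67%), and 4 and 3 without Con48h B (7.81 and 8.6%).

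With Arg, 1 member rose from 24 to 48 h and 20 fell, which is 1.75% against 14.3% of all genes and 35.1% against 14%. The Arg24h libraries used here also carry the Arg comparison at 24 h, so the fall over time is not a separate result. In all, 14 of 57 had a positive log2 fold change (24.6%, against 50.1%) and 43 a negative one, with a median of -0.12 (0.00 over all genes). Scaled by library size only, 4 rose and 13 fell, while the median of all genes went from 0.00 to 0.06, and 17.8% of them rose and 10.1% fell. The mitochondrial share was higher at 48 h (1.14 to 1.31%) than at 24 h (0.624 to 0.802%) in the Arg libraries, and without those genes the same counts were called. Without Arg48h B the calls were 0 and 13 (10.5 and 9.31% of all genes), and without Arg48h C 0 and 17 (10.7 and 10.4%). Without Arg48h A 2 rose (10.4% of all genes), and without Arg24h A also 2 (11.8%). The member that rose was DDX46, from 140.9, 163.3 and 155.0 CPM to 166.6, 187.6 and 187.4 CPM (log2 fold change 0.24, SE 0.07, adjusted p = 0.0217). The Arg libraries did not overlap between the times for 5 members that were higher (8.77%, against 21.1% of all genes) and 23 that were lower (40.4%, against 21.2%).

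SNRPB had the smallest p among those that fell, from 296.4, 287.4 and 310.1 CPM at 24 h to 233.7, 204.9 and 197.9 CPM at 48 h (log2 fold change -0.49, SE 0.07, adjusted p = 5.28e-05). No library of 48 h came near those of 24 h. LSM6 had the largest fold of the genes that fell, from 27.1, 39.4 and 33.6 CPM to 24.2, 24.8 and 21.2 CPM (-0.51, SE 0.12, adjusted p = 0.0036). The 24 h libraries of LSM6 differed among themselves more than those of 48 h. In the rings, SNRPD1, SNRPG, LSM2 and LSM4 fell as well (-0.25 to -0.34). In the U2 class 6 of 15 fell, among them SNRPA1, the U2-specific protein (-0.37, adjusted p = 0.000720), SF3A3 (-0.34, 0.00120) and U2AF2 (-0.32, 0.00194). In the tri-snRNP class 5 of 13 fell, led by PRPF4 (-0.39, 0.000382) and PRPF38A (-0.35, 0.00149), with PRPF3, PRPF19 and SNRNP40. SNRNP25 of the U11/U12 particle (-0.36, 0.00166), SNRPC (-0.23, 0.0129) and the helicase DDX23 (-0.24, 0.0190) completed the list with SF3B3, SF3B5 and SF3B6.

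The comparisons over time in control and with Arg share no library either. Each shares its libraries with the Arg comparisons at 24 and 48 h, so those results are not independent of it. All 7 members that fell in the controls (100%) were among the 20 that fell with Arg (35%), and DDX46 was the member that rose in both (Pearson r of the log2 fold changes 0.75 over the 57 genes, a description). The same overlap and r were not computed over all genes, so neither is shown to be particular to the members. Of the other 13 that fell with Arg, 11 were also below 0 in the controls. The smallest unadjusted interaction p among these 13 was 0.0151, for PRPF3, so a change over time particular to the Arg-treated cells was not shown. Fibroblast markers summed to 30.2 to 54.3 CPM in the libraries of 24 h and to 72.7 to 102 CPM in those of 48 h. Of the 6 markers 4 were tested, of which 2 rose over time in the controls and 2 with Arg. Their part in the changes over time was not tested.

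The log2 fold change of a member ran with the exonic length of its gene. Across the 57 members, Spearman's rho between the log2 fold change and the exonic length was 0.35 for Arg at 24 h, 0.42 for Arg at 48 h, 0.37 for time in the controls and 0.43 for time with Arg. The points share the libraries and are not independent, and over all protein-coding genes tested the same rho was 0.11, 0.22, 0.16 and 0.22. With the length of the GENCODE canonical transcript instead, rho over the members was 0.44, 0.39, 0.45 and 0.38. By exonic length, the 10 members under 2000 bases had a median log2 fold change of -0.12 with Arg at 24 h and of -0.20 at 48 h. The 12 members over 8000 bases had medians of 0.20 and 0.08. For all protein-coding genes tested, the medians were -0.09 and -0.09 under 2000 bases, and 0.03 and 0.06 over 8000 bases. Sm ring genes are short (median 1795 bases) and the helicases long (7261.5 bases), so the roles and the lengths are confounded, and their parts cannot be told apart. With the trend on length removed in each library, the calls with Arg at 24 h were DHX38, PRPF6, SNRNP200 and SF3A2, all higher. Of all genes, 3.07% were then higher and 4.29% lower. Over time with Arg, 0 rose and 14 fell in place of 1 and 20 (12.6 and 13.6% of all genes). DDX46 was among those lost (0.14, adjusted p = 0.164).

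**Figure D5:**
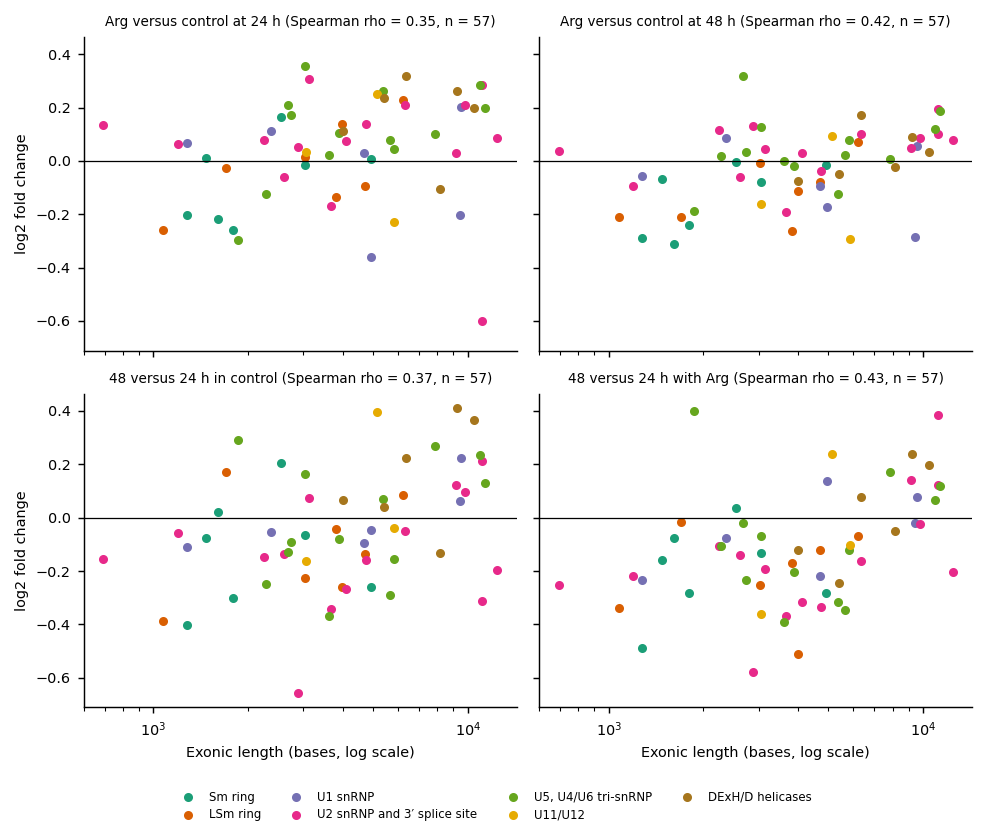
Log2 fold change (vertical axis) against exonic length in bases (horizontal log axis) of 57 members coloured by role, for 4 comparisons. Spearman's rho is 0.35, 0.42, 0.37 and 0.43, and most of the shortest genes lie below 0 while the genes over 8000 bases lie mostly above it. U2AF1L5, with a long exonic length (11119 bases) and few counts, lies at -0.60 in the comparison at 24 h.

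Genes that work with these proteins were examined by lists that the rule did not take. Of 21 genes of the Prp19 complex and the catalytic steps, 1 was upregulated by Arg at 24 h (4.76%, against 2.79% of all genes) and 0 downregulated (against 3.84%). It was SRRM1, a coactivator of splicing (0.50, SE 0.10, adjusted p = 0.00460). In this list 16 were positive (76.2%, against 50.5% of all genes), with a median of 0.06. Of 19 core partners of the snRNPs, 1 was upregulated and 1 downregulated (5.26% each, against 2.79 and 3.84% of all genes). CD2BP2, a U5 protein, was higher (0.30, adjusted p = 0.0468) and LUC7L, a U1-associated protein, lower (-0.83, adjusted p = 0.000124). The median of this list was 0.01. LUC7L fell from a mean of 35.2 CPM (SD 1.13, n = 3) to 19.9 CPM (SD 1.58, n = 3), a larger log2 fold change than that of any member. Of 17 genes of the SMN complex and snRNP assembly, which load the Sm ring onto snRNA, 1 was downregulated (5.88%, against 3.84% of all genes). It was WDR77, a partner of the methyltransferase PRMT5 (-0.31, adjusted p = 0.0347). In the assembly list 8 were positive (47.1%, against 50.5% of all genes), with a median of -0.08. Of the 5 exon junction complex genes (0.19) and the 6 partners in the minor spliceosome (0.07, median of the list), 0 were called by edgeR, with 3 and 0 at an unadjusted p under 0.05. The 3 were higher (60% of their list, against 10.8% of all genes). At 48 h no gene of the 5 lists was called in edgeR. By an unadjusted p under 0.05, 4 genes of the 5 lists together were then higher and 2 lower. The higher ones were 1 of 21 in the Prp19 list (4.76%), 2 of 19 core partners (10.5%) and 1 of 5 exon junction genes (20%), against 5.94% of all genes. The lower ones were 1 of 21 in the Prp19 list (4.76%) and 1 of 17 assembly genes (5.88%), against 7.49%. The smallest p belonged to SRRM2 (0.27, adjusted p = 0.204).

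Over time, 6 of the 17 assembly genes fell in the controls (35.3%, against 10% of all genes) and 0 rose (median -0.25). With Arg 7 fell (41.2%, against 14%) and 0 rose (-0.18). WDR77 fell by 0.63 on the log2 scale in the controls (adjusted p = 0.00370) and by 0.54 with Arg (adjusted p = 2.08e-05), and PRMT5, which methylates Sm proteins, by 0.48 (adjusted p = 0.00406) and 0.35 (adjusted p = 0.000859). Of the core partners, 5 fell (26.3%, against 10% of all genes) and 1 rose (5.26%, against 9.9%) in the controls. With Arg 9 fell (47.4%, against 14%) and 0 rose (against 14.3%). SNU13, the protein that binds U4 first, was among those that fell both times (-0.39, adjusted p = 0.0109, and -0.36, adjusted p = 0.000822). Of the exon junction complex, 4 of 5 fell with Arg (80%, against 14% of all genes, median -0.26). In the controls 0 fell by edgeR (0 also at an unadjusted p under 0.05, median -0.16). The interaction was called for 0 of these 5, also by an unadjusted p under 0.05, so a difference between Arg and control was not shown. Of the 21 genes of the Prp19 complex list, 2 rose (9.52%, against 9.9% of all genes) and 0 fell (against 10%) in the controls. With Arg 4 rose (19%, against 14.3%) and 2 fell (9.52%, against 14%). Medians of all genes tested were 0.01 and 0.00 in these comparisons.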

How the data were processed

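The authors prepared poly(A) RNA libraries from TIGK cells, sequenced them as paired reads and deposited 1 table of raw counts per gene for the 12 libraries. Per the labels and the submitters' processing notes, reads were trimmed with fastp, aligned to GRCh38 (hg38) with STAR and counted with featureCounts. Their versions, the annotation release and the strand setting are not given in the sources used here. Columns were assigned to groups by the labels. The 57 members tested passed edgeR's filterByExpr in every comparison.

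Each comparison was fitted over all genes with edgeR 4.0.16 (R 4.3.3; glmQLFit and glmQLFTest, TMM scaling, Benjamini-Hochberg adjustment at 0.05), on the 6 libraries concerned or, for the interaction, on all 12. Adjusted p-values in the report are edgeR's unless DESeq2 is named. SE is the log2 fold change over the square root of F. Alternatives were DESeq2 1.42.0, its size factors, library size only, other count filters, a joint model, a replicate block, a correction for gene length, removal of mitochondrial genes and leaving out each library. The script was tested on simulated data. Total counts limit precision, and intervals cover the spread between libraries only. The genes named were those called, the 5 with the smallest p per direction and comparison, the 3 with the smallest interaction p, and the highest and lowest levels. Others are named to describe their class and were chosen after their values were seen. The members and lists were chosen with earlier results of these data known. A member is counted in every total but is not reported here by name.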

Additional observations from a re-analysis of the deposited data

How the results depend on the processing

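No member's direction that the tests called was reversed by an alternative. With Arg at 24 h, leaving out 1 library gave 1 to 7 members higher and 0 to 4 lower, against 4 and 0. Of all genes, 0.859 to 4.42% were then higher and 1.59 to 6.02% lower. At 48 h, leaving out 1 library gave 0 to 3 higher and 0 to 11 lower, against 0 and 0. The shares of all genes were 0 to 7.76% and 0.0336 to 8.17%. At 48 h DESeq2 called 1 lower (0.989% of all genes). Without a filter on low counts 1 was higher and 2 lower (0.73 and 1.37% of all genes). Over time in control, leaving out 1 library gave 1 to 5 higher and 0 to 9 lower, against 6 and 7. The shares of all genes were 2.85 to 10.7% and 2.74 to 11.6%. Scaling by library size only gave 2 lower (6.98% of all genes) with a median of -0.0043 (all genes 0.07). Without the count filter 3 were higher (5.94% of all genes), and 3 also with the length correction (9.14%). Over time with Arg, leaving out 1 library gave 0 to 2 higher and 13 to 19 lower, against 1 and 20, with medians of -0.15 to -0.11. The shares of all genes were 10.4 to 12.4% and 9.31 to 12.9%. Scaling by library size only gave 4 higher and 13 lower (17.8 and 10.1% of all genes), with a median of -0.065 (all genes 0.06). The length correction gave 0 higher (12.6% of all genes). The median interaction ran from -0.117 to -0.043 when 1 library was left out. The deviations of control and Arg libraries with the same letter, A, B or C, at the same time correlated at -0.0914 to 0.0580. Values near 0 do not show a pairing by letter, but they cannot exclude one. Whether the letters pair libraries across the times was not tested. With the letters as a replicate block, 3 members were higher at 24 h (without U2SURP, 0.28, adjusted p = 0.0553), against 2.65% of all genes. At 48 h the block gave 0 higher and 1 lower (SNRPD2), against 0.295 and 0.968% of all genes. Without the block, 0 and 0.117% of all genes were called. Over time in control 8 rose and 10 fell (13.6 and 14.4% of all genes). Over time with Arg 1 rose and 19 fell (13.4 and 12.9% of all genes). The block with the length correction gave 0 and 13 over time with Arg (11.5 and 12.3% of all genes). The causes were not tested.

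With 3 libraries per group, differences near the SE given could not be detected, and rows with few counts, such as U2AF1L4 and U2AF1L5, are the least precise.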
